A study of Mus musculus with 18 samples.

Results

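BV-2 cells are an immortalised mouse microglial line. Microglia are the resident macrophages of the brain. The comparison described here is that of BV-2 cells given cannabidiol (CBD, a plant cannabinoid) together with lipopolysaccharide (LPS, a cell wall component of Gram-negative bacteria that activates Toll-like receptor 4) with untreated BV-2 cells. Small RNA was sequenced in 18 samples of 6 groups, and the comparison takes 6 of them by their labelled treatment, the CBD+LPS samples 26, 32 and 38 and the control samples 22, 28 and 34. By the methods of the study, CBD was added at 10 μM 2 h before LPS at 100 ng/ml, LPS was present for 4 h, and the whole incubation lasted 6 h. The labels of the combined treatment give no dose. Control cells received neither compound, and the labels give no added vehicle for them, while the CBD stock was made in ethanol. The groups given LPS alone, CBD alone and THC+LPS (tetrahydrocannabinol, another plant cannabinoid, with LPS) had 3 samples each. They serve to place the values of CBD+LPS, in part by direct tests. Together with the group given THC alone, they also enter the model behind the main tests. The sources do not say whether samples of a group came from separate cultures, so the p-values measure the spread between these samples, which may be technical.

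The data list 2134 features, of which 855 are miRNA hairpins (written mir) and 1279 are mature miRNAs (written miR). A sum of 10 reads or more across all 18 libraries was required for testing, which 1363 features met, 642 hairpins and 721 mature miRNAs. Levels are given as reads or as CPM, which are reads scaled to a common library size with edgeR's TMM factor. Tests used limma on log2(CPM + 1) with the 6 groups in a single model. Samples 22 to 27 stood apart from the others in some features. miR-181a-5p, for instance, had 14616 to 18680 CPM in the LPS, CBD, CBD+LPS and THC+LPS samples among them and 34924 to 52218 CPM in the later samples of these groups, but 21865, 45953 and 22853 CPM in control samples 22, 28 and 34. The labels name no batch, and results from samples 28 to 39 alone are given beside the calls at the end. A feature was called at an unadjusted p of at most 0.005 with at least a 1.5-fold change. Adjusted p-values are those of limma after Benjamini-Hochberg adjustment over the 1363 features.

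A microRNA is cut from a hairpin transcript, and either arm of the hairpin, the 5p or the 3p arm, can be loaded into an Argonaute protein. The loaded strand pairs with messenger RNAs mainly through its seed, bases 2 to 8, and lowers their stability or translation. In macrophages and microglia, signalling from Toll-like receptor 4 to NF-κB and AP-1 is known to induce several miRNA genes, those of miR-21a, miR-146a and miR-155 among them, whose products act back on components of this signalling.

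The mature sequences of the called miRNAs with the most reads, among those with a matched sequence, are shown here. The seed is in capitals, since it sets which transcripts a miRNA can pair with. The sequences are from RefSeq on GRCm38, written 5′ to 3′. The first 7 were higher in CBD+LPS than in control and the last 3 were lower.
miR-155-5p: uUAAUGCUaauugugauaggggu
miR-155-3p: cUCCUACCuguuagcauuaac
miR-21a-5p: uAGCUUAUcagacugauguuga
miR-21a-3p: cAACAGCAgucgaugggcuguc
miR-146a-3p: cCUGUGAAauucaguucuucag
miR-20a-3p: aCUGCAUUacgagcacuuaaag
miR-221-5p: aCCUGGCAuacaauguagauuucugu
miR-92a-1-5p: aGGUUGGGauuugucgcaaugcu
miR-25-5p: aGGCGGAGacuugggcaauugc
miR-181b-1-3p: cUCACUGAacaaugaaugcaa
RefSeq held a sequence for 12 of the 13 called mature miRNAs and for 600 of the 721 tested, and the 12 carried 12 different seeds. Tested miRNAs with the same seed as a called one were few. miR-181b-2-3p shares the seed of miR-181b-1-3p and had a log2 fold change of −0.68, and miR-21c shares that of miR-21a-5p and had one of −0.19. Neither was called.

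Both arms of the hairpins of miR-155 and miR-21a were called, and the hairpins are shown with their mature arms in capitals, the 5p arm first.
Mir155: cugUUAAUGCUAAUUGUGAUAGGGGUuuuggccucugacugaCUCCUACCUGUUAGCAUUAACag
Mir21a: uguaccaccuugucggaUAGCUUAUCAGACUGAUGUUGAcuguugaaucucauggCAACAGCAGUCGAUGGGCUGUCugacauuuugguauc
Mir155 lies at chr16:84714140-84714204 on the plus strand of GRCm38, in an exon of its host Mir155hg, and Mir21a at chr11:86584067-86584158 on the minus strand, in an exon of the protein-coding gene Vmp1. Of the other precursors with called features, Mir20a and Mir92-1 lie in an exon of Mir17hg on chromosome 14, Mir25 in an exon of Mcm7 on chromosome 5, and Mir221 on the X chromosome in no annotated host.

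Against control, CBD+LPS called 19 features, 14 higher and 5 lower, from 14 precursors. These are 1.39% of the 1363 features, 1.03% called higher and 0.367% called lower. With scaling by library size alone the split was 11 higher and 8 lower, and miR-146a-3p, mir-20a, miR-20a-3p, mir-34a and miR-705 were no longer called. There were 86 features (6.31%) with an unadjusted p up to 0.05. Of the 19 features, 6 had an adjusted p of at most 0.1, which 0.44% of all features reached. These were both arms and the hairpin of miR-155, the 3p arm and the hairpin of miR-21a, and the hairpin of mir-696. The adjusted threshold was met by 5 features with edgeR's quasi-likelihood test and by 21 with DESeq2, which gave no adjusted p for 766. By limma in samples 28 to 39 alone 60 features met it. In all 19 the 3 CBD+LPS samples lay beyond the 3 control samples, while over all features the groups did not overlap in 4.77% with CBD+LPS higher and in 4.48% with CBD+LPS lower. The median log2 fold change over the 1363 features was 0.04. A table of the study names 14 of the 19, and since it was chosen on these samples it is not independent evidence of them.

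**Figure D1:**
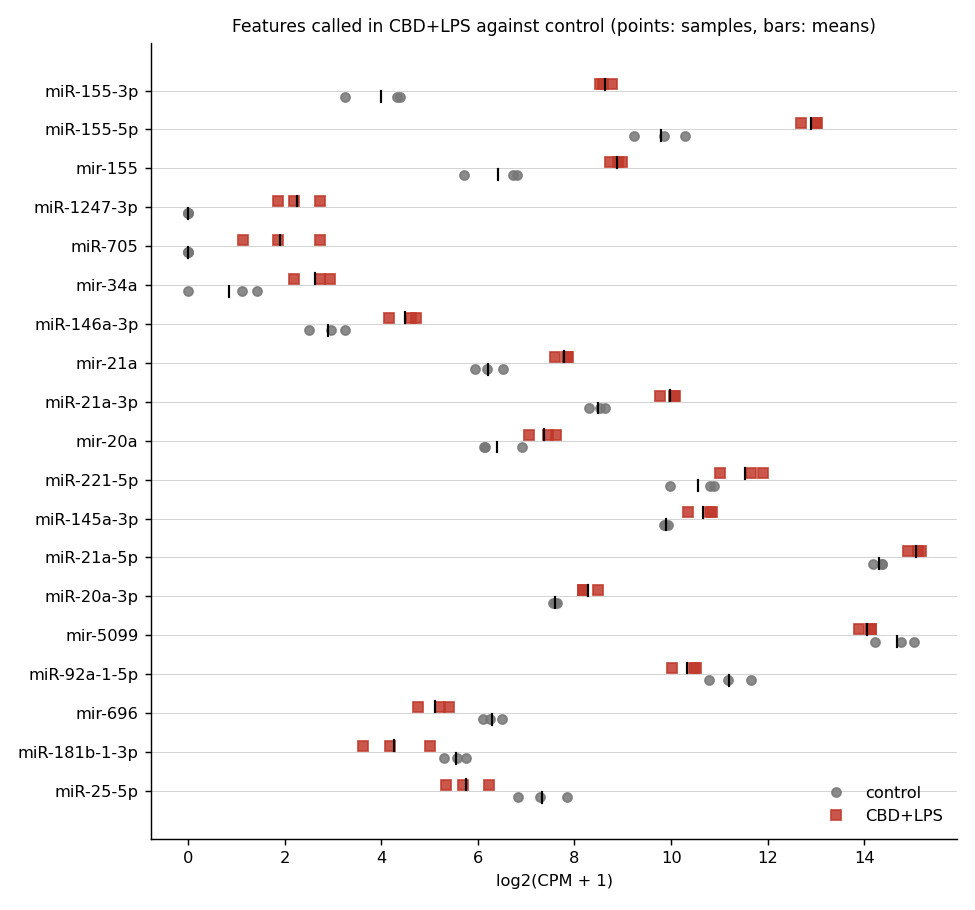
Level, as log2(CPM + 1), of the 19 called features in each control sample (grey circles) and each CBD+LPS sample (red squares), with the group mean of 3 samples as a black bar. In every row the groups do not overlap, and the gap is widest for miR-155-3p, from 19.8 CPM in the highest control sample to 369 CPM in the lowest CBD+LPS sample.

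The 3p arm of miR-155 showed the largest change. It had 9, 5 and 17 reads in control samples 22, 28 and 34, or 19.1, 8.55 and 19.8 CPM, and 387, 278 and 321 reads in CBD+LPS samples 26, 32 and 38, or 436, 369 and 385 CPM. All 3 treated samples were far above all 3 controls. The log2 fold change was 4.64 (SE 0.31), with a limma adjusted p of 4.13e-08.

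The 5p arm, the more abundant strand of miR-155, had 1248, 598 and 919 CPM in control and 6580, 8182 and 8333 CPM in CBD+LPS. Again the lowest treated sample lay well above the highest control. Its log2 fold change was 3.12 (SE 0.22), with a limma adjusted p of 4.87e-08. The hairpin mir-155 rose from 111, 51.3 and 105 CPM to 424, 477 and 506 CPM, a log2 fold change of 2.46 (SE 0.25) with a limma adjusted p of 1.11e-05. The call of each of the 3 features was met whichever of the 6 samples was left out, with log2 fold changes of 4.28 to 4.84 for the 3p arm, 2.84 to 3.37 for the 5p arm and 2.11 to 2.66 for the hairpin.

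miR-21a, an abundant miRNA of myeloid cells, rose in all of its features. miR-21a-5p had 18555, 21046 and 20936 CPM in control and 30648, 35188 and 36785 CPM in CBD+LPS, without overlap. Its log2 fold change was 0.76 (SE 0.19), with an unadjusted p of 0.000955 and a limma adjusted p of 0.130. The call was not met without CBD+LPS sample 38, where the log2 fold change was 0.70 and the limma p 0.00525.

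miR-21a-3p had 366, 395 and 312 CPM in control and 1087, 873 and 1064 CPM in CBD+LPS. The lowest treated sample was well above the highest control. Its log2 fold change was 1.49 (SE 0.22), with a limma adjusted p of 0.000804. The hairpin mir-21a rose from 91.4, 71.8 and 60.6 CPM to 230, 194 and 234 CPM, a log2 fold change of 1.56 (SE 0.27) with a limma adjusted p of 0.00635. Both calls held with each sample left out.

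Of miR-146a, which targets adaptors of Toll-like receptor signalling, the rare 3p arm was called and the abundant 5p arm was not. miR-146a-3p had 4 reads in each control sample and 21, 19 and 14 reads in CBD+LPS, all above control. Over the group sums the rate was 3.48 times that of control, with an exact 95% interval for counting error alone of 1.84 to 7.15. The change on the log2 scale was 1.59 (SE 0.46), with an unadjusted p of 0.00293 and a limma adjusted p of 0.307. The call was not met without CBD+LPS samples 26 (p of 0.0105) or 32 (p of 0.0131) or without control samples 28 (p of 0.00691) or 34 (p of 0.0157), by limma in each case. miR-146a-5p had 6591, 4569 and 6634 CPM in control and 7510, 12680 and 11267 CPM in CBD+LPS. The groups did not overlap, but CBD+LPS sample 26 was close to control. In log2 units the change was 0.81 (SE 0.28) with a limma p of 0.00960, above the threshold of 0.005. The related miR-146b-5p, which has the same seed, had a log2 fold change of 0.04 (SE 0.26).

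Around these, the list of miRNAs known to respond to Toll-like receptor 4 and NF-κB had 29 members, of which 26 passed the filter. Of the 26, 7 were called higher and none lower, beside 1.03% called higher and 0.367% called lower over all features, and the other 19 were not called. The 7 are the features of miR-155, miR-21a and miR-146a given above. The median log2 fold change of the 26 was 0.32, beside 0.04 over all features, and 8 of the 26 had a log2 fold change below 0. Of these 8, 3 had an unadjusted limma p up to 0.05 without being called, miR-146b-3p (−1.06), miR-212-3p (−0.68) and miR-132-5p (−0.65).

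The X-linked cluster of miR-221 and miR-222, which share their 3p seed, had 6 features. miR-221-5p was called higher. It had 1780, 1895 and 1009 CPM in control and 2075, 3229 and 3815 CPM in CBD+LPS. The groups were separated by a narrow gap between control sample 28 and CBD+LPS sample 26. The log2 fold change was 0.97 (SE 0.30), with an unadjusted p of 0.00461 and a limma adjusted p of 0.331. By limma the call was not met without control sample 34 (0.68, p of 0.0390), CBD+LPS sample 32 (0.90, p of 0.0178) or CBD+LPS sample 38 (0.78, p of 0.0297). The hairpin mir-222 came closest to a call among the other 5, with a log2 fold change of 0.80 (SE 0.25) and a limma p of 0.00518. miR-221-3p had a log2 fold change of 0.59 and miR-222-3p one of 0.18, and neither passed. All 6 log2 fold changes were above 0, with a median of 0.69.

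The miR-17~92 cluster, transcribed from Mir17hg and known for promoting proliferation, held calls in both directions. The hairpin mir-20a rose from 119, 70.1 and 68.7 CPM to 195, 131 and 175 CPM. The change on the log2 scale was 0.98 (SE 0.26), with an unadjusted p of 0.00142 and a limma adjusted p of 0.175. By limma the call was not met without control sample 28 (0.86, p of 0.00862) or 34 (0.85, p of 0.00956) or without CBD+LPS sample 26 (0.86, p of 0.00791) or 38 (0.94, p of 0.00625). miR-20a-3p rose from 194, 188 and 198 CPM to 288, 288 and 356 CPM. Its log2 fold change was 0.68 (SE 0.20), with an unadjusted p of 0.00329 and a limma adjusted p of 0.320, and the call was met in 1 of the 6 fits with a sample left out, that without CBD+LPS sample 26. In the other 5 the log2 fold change was 0.57 to 0.73 and the largest limma p was 0.0202. Calls of both mir-20a and miR-20a-3p also needed the TMM scaling, since with library size alone their log2 fold changes were 0.86 (limma p of 0.0113) and 0.55 (below 1.5-fold). The abundant miR-20a-5p had a log2 fold change of −0.07 (SE 0.18).

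The passenger strand miR-92a-1-5p of the same cluster fell. It had 3207, 2307 and 1769 CPM in control and 1036, 1411 and 1454 CPM in CBD+LPS. Every treated sample was below every control, and control sample 22 was the highest. In log2 units the change was −0.87 (SE 0.21), with an unadjusted p of 0.000656 and a limma adjusted p of 0.115. Without control sample 22 it was −0.65 with a limma p of 0.00596. miR-92a-3p, which both miR-92a hairpins yield, had a log2 fold change of −0.19 (SE 0.16). Of the 18 features of the cluster 15 were not called, and the median was −0.17.

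miR-25-5p, from the paralogous miR-106b~25 cluster within Mcm7, fell as well. It had 230, 113 and 155 CPM in control and 74.4, 50.5 and 39.6 CPM in CBD+LPS. The lowest control was still above the highest treated sample. The log2 fold change was −1.57 (SE 0.38), with an unadjusted p of 0.000758 and a limma adjusted p of 0.115. By limma the call was not met without control sample 22 (−1.30, p of 0.00577) or without CBD+LPS sample 38 (−1.36, p of 0.00575). Its partner miR-25-3p, which has the seed of miR-92a-3p, had a log2 fold change of −0.005 (SE 0.15). miR-25-5p was the single call among the 9 features of the cluster, whose median was −0.30.

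miR-145a-3p, of a cluster best known from smooth muscle, rose from 983, 920 and 937 CPM to 1295, 1828 and 1791 CPM. The change on the log2 scale was 0.77 (SE 0.19), with an unadjusted p of 0.000704 and a limma adjusted p of 0.115, and without CBD+LPS sample 32 it was 0.69 with a limma p of 0.00523. The other 2 tested features of the cluster were not called.

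The hairpin mir-696 was the feature with the smallest p among those that fell. It had 89.3, 68.4 and 75.7 CPM in control, from 42, 40 and 65 reads, and 25.9, 41.2 and 35.99 CPM in CBD+LPS, from 23, 31 and 30 reads. No treated sample reached the lowest control. In log2 units the change was −1.17 (SE 0.26), with a limma adjusted p of 0.0757, and between −1.31 and −0.99 with each sample left out, where the call was always met. No RefSeq or GENCODE entry was matched to it.

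miR-181b-1-3p, a passenger strand of the miR-181 family, fell from 22, 31 and 33 reads to 10, 13 and 26 reads. In CPM these were 46.8, 53.0 and 38.4 against 11.3, 17.3 and 31.2, and CBD+LPS sample 38 came close to control. The log2 fold change was −1.27 (SE 0.37), with an unadjusted p of 0.00280 and a limma adjusted p of 0.307. By limma the call was not met without control samples 22 (−1.26, p of 0.00773) or 28 (−1.17, p of 0.0125), or without CBD+LPS samples 26 (−0.95, p of 0.0213) or 32 (−1.23, p of 0.00988). Its hairpin mir-181b-1 went the other way, with 56, 94 and 102 reads in control and 376, 124 and 147 reads in CBD+LPS and a log2 fold change of 0.81 (SE 0.31) that was not called (limma p of 0.0176). CBD+LPS sample 26 gave most of that difference. Of the 16 tested features of the miR-181 family, 15 were not called.

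The hairpin mir-5099 had 27656, 19139 and 33221 CPM in control and 15073, 17918 and 17992 CPM in CBD+LPS. Control sample 28 lay only slightly above CBD+LPS sample 38. The change on the log2 scale was −0.62 (SE 0.19), with an unadjusted p of 0.00431 and a limma adjusted p of 0.329. The call was met in 1 of the 6 fits with a sample left out, that without control sample 28, and in the other 5 the log2 fold change was −0.66 to −0.44 and the largest limma p was 0.0355.

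The remaining 3 calls rest on very few reads. miR-1247-3p had no read in any control sample and 5, 2 and 3 reads in CBD+LPS. miR-705 likewise had no read in control and 5, 2 and 1 reads in CBD+LPS. At these depths 3 reads, taken as the floor, amount to 3.38 to 6.38 CPM in the 6 samples, so both groups are at or near the floor and no fold is given. The hairpin mir-34a, whose gene is a known target of p53, had 0, 1 and 1 reads in control and 5, 5 and 3 reads in CBD+LPS, a ratio of rates of 5.03 with an exact 95% counting interval of 1.14 to 45.9. Its mature product miR-34a-5p had 61.7, 78.7 and 55.9 CPM in control and 38.3, 86.3 and 103 CPM in CBD+LPS, which overlap, with a log2 fold change of 0.11 (SE 0.39). With each sample left out in turn, the limma call of miR-1247-3p was met in none of the 6 fits (largest p 0.0169), that of miR-705 only without CBD+LPS sample 38 (otherwise up to 0.0270), and that of mir-34a only without control sample 28 (otherwise up to 0.0295). None of the 3 was called by edgeR's quasi-likelihood test on the reads.

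**Figure D2:**
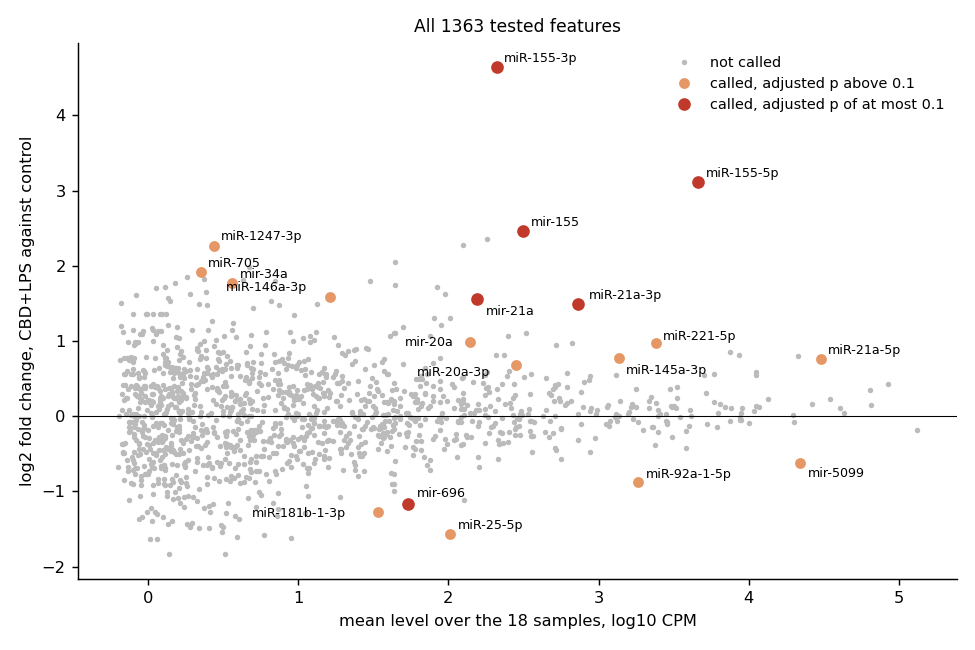
Log2 fold change of CBD+LPS against control (vertical) against the mean level over the 18 samples in log10 CPM (horizontal) for the 1363 tested features. The 6 called features with an adjusted p of at most 0.1 are red, the other 13 called are orange, and miR-155-3p is the highest point at 4.64.

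For several of the called miRNAs the 2 arms of a hairpin did not change equally. The log2 ratio of 5p to 3p, each as CPM + 1, was computed in each sample. This takes most of the library scaling out, but less so where an arm is rare. For miR-155 the ratio was 5.95, 5.97 and 5.47 in control and 3.91, 4.47 and 4.43 in CBD+LPS, so the 3p arm gained on the 5p arm by 1.53 log2 units. For miR-21a it went from 5.66, 5.73 and 6.06 to 4.82, 5.33 and 5.11, a difference of −0.73. In both hairpins all 3 treated samples were below all 3 controls, while both arms rose. The 3 samples given LPS alone also lay below all 3 controls. Their mean ratios were 4.26 for miR-155 and 5.16 for miR-21a, beside 4.27 and 5.09 in CBD+LPS.

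The arms of miR-20a differed by −0.75 in the same direction, from 3.24, 2.95 and 3.37 to 2.44, 2.61 and 2.28. For miR-25 the ratio fell by 1.56, from −5.19, −6.005 and −5.93 to −6.76, −7.34 and −7.71. miR-92a-1-5p against miR-92a-3p fell by 0.69, and miR-181b-5p against miR-181b-1-3p rose by 1.15, although in each of these pairs the abundant arm comes from more than 1 hairpin. These 6 pairs did not overlap between the groups, and each reached the smallest p that an exact 2-sided permutation test of 3 against 3 samples allows, 0.1. The ratios overlapped for miR-146a (a difference of −0.78, exact permutation p = 0.2), miR-221 (0.38, exact permutation p = 0.3) and miR-1247 (−0.47, exact permutation p = 1). So 6 of the 9 pairs with a called arm did not overlap, beside 12% of 191 pairs whose arms share a name. The pairs of miR-92a-1-5p and miR-181b-1-3p, both among the 6, were added by hand and are not in the 191. The 2 shares are thus not of the same set. A called arm itself enters the ratio, so 6 of 9 is also not independent of the calls. The mean ratio under LPS alone was 2.13 for miR-20a and −7.10 for miR-25, beside 2.44 and −7.27 in CBD+LPS. For the pairs of miR-92a-1-5p and miR-181b-1-3p it was −5.99 and 6.64 under LPS alone, near the control means of −5.92 and 6.48.

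**Figure D3:**
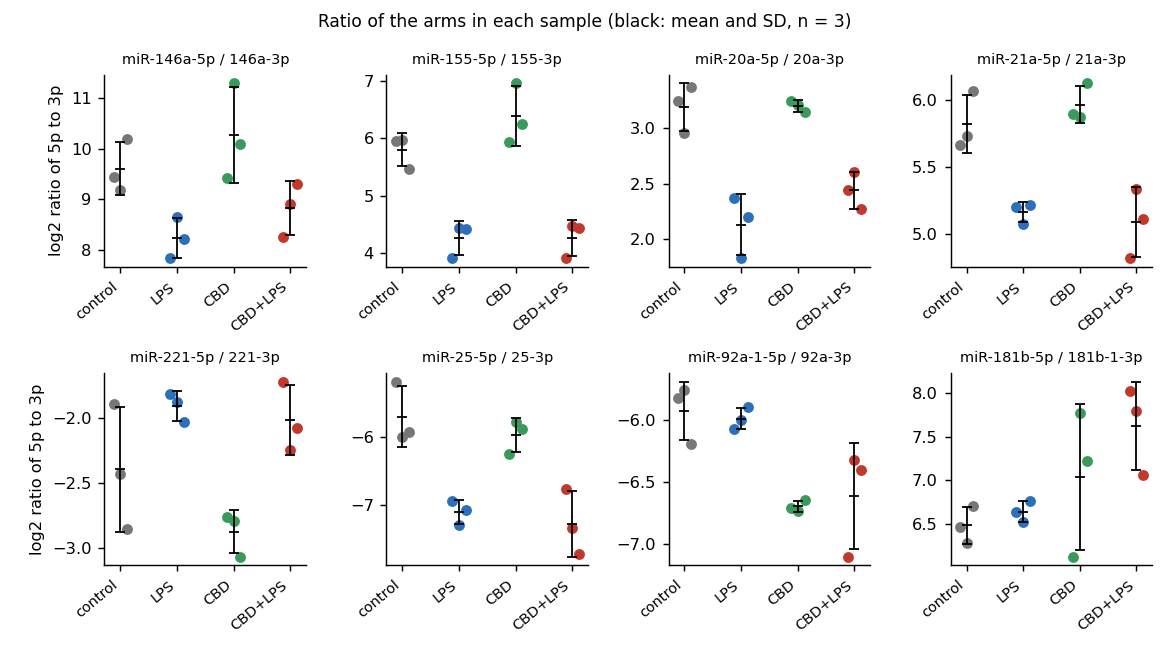
Log2 ratio of the 5p to the 3p arm in each sample of the control, LPS, CBD and CBD+LPS groups for 8 miRNAs with a called arm, with mean and SD (n = 3) in black and an axis of its own in each panel. For miR-155, miR-20a, miR-21a and miR-25 the LPS and the CBD+LPS samples both lie below all control samples. For miR-181b against miR-181b-1-3p the CBD+LPS samples lie above them.

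The change under CBD+LPS is set beside that under each agent alone. All 3 comparisons use the same control samples, so they are not independent, and the values are given side by side without a test of likeness. The log2 fold change of miR-155-3p was 4.87 (SE 0.31) under LPS, 4.64 under CBD+LPS and −0.11 (SE 0.31) under CBD. For miR-155-5p it was 3.33, 3.12 and 0.48 (SE 0.22), and for mir-155 2.77, 2.46 and 0.52 (SE 0.25). miR-21a-3p had 1.73 under LPS, 1.49 under CBD+LPS and 0.06 under CBD. miR-21a-5p had 1.08, 0.76 and 0.20. In these 5 features the value under the combination was near to that under LPS and well above that under CBD.

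Among the other features the order varied. mir-696 had a log2 fold change of −1.36 (SE 0.26, limma adjusted p = 0.0342) under CBD, −1.17 under CBD+LPS and −0.17 (SE 0.26) under LPS. miR-92a-1-5p had −0.66 under CBD, −0.87 under CBD+LPS and −0.27 under LPS. miR-25-5p had −1.42 (SE 0.38) under LPS, −1.57 under CBD+LPS and 0.03 under CBD. mir-34a had 2.34 (SE 0.54) under CBD, from 7, 3 and 6 reads, and 0.49 under LPS, from 1, 1 and 2 reads. So mir-696, miR-92a-1-5p and mir-34a under the combination were nearer to CBD alone, and miR-25-5p was nearer to LPS alone.

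**Figure D4:**
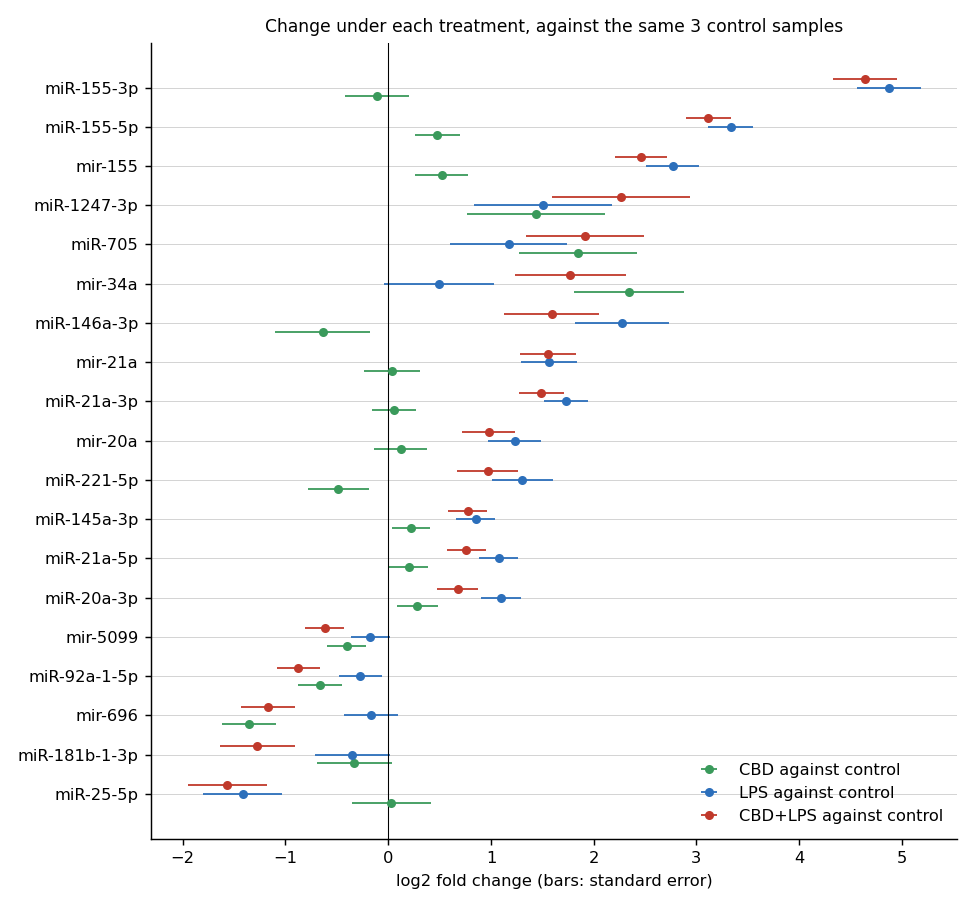
Log2 fold change against the same 3 control samples, with its standard error, for the 19 features called in CBD+LPS (red), beside LPS alone (blue) and CBD alone (green). The features of miR-155 and miR-21a are near 0 or up to 0.52 under CBD and high under both LPS and CBD+LPS, and mir-696 is lowest under CBD at −1.36.

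Set directly against LPS alone, CBD+LPS called 3 features, all lower, which is 0.22% of the 1363, and none higher. By limma none had an adjusted p of at most 0.1, while 44 features (3.23%) reached an unadjusted p of 0.05 or less. The adjusted threshold was met by 0 features with edgeR's quasi-likelihood test and by 1 with DESeq2, miR-6390, and these tools gave 51 and 31 features at the unadjusted one. mir-696 had 64.1, 75.5 and 66.9 CPM in LPS against 25.9, 41.2 and 35.99 CPM in CBD+LPS, a log2 difference of −1.003 (95% interval −1.56 to −0.45, limma p of 0.00135, adjusted p = 0.849). miR-6390 had 73.2, 64.9 and 54.6 CPM in LPS against 20.3, 29.2 and 31.2 CPM, a difference of −1.24 (−1.80 to −0.67, limma p of 0.000234, adjusted p = 0.318). miR-10b-5p had 8, 20 and 23 reads in LPS against 1, 1 and 7 reads, a difference of −2.46 (−3.87 to −1.05, limma p of 0.00187, adjusted p = 0.849). None of the 3 overlapped between the groups, beside 5.87% of all features with CBD+LPS below LPS.

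The call of miR-6390 against LPS was met with each sample left out. That of mir-696 was not met by limma without CBD+LPS sample 26 (−0.82, p of 0.00874) or LPS sample 29 (−0.94, p of 0.00706). That of miR-10b-5p was not met by limma without CBD+LPS sample 26 (−2.08, p of 0.0126) or 32 (−2.15, p of 0.0116) or without LPS sample 29 (−2.23, p of 0.0104) or 35 (−2.30, p of 0.00890). The number of calls against LPS was 1 without CBD+LPS sample 26 or LPS sample 29, 6 without LPS sample 23 or 35, and 5 without CBD+LPS sample 38. Higher calls, absent with all samples, appeared in some of these fits, 3 without LPS sample 35, 2 without LPS sample 23 and 1 without CBD+LPS sample 32 or 38. There were also 2 higher calls with a filter of at least 1 read, without the mean-variance trend, by DESeq2 and in samples 28 to 39 alone, so the lack of higher calls was not stable.

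For the following features of miR-155, miR-21a and miR-146a the 95% interval of the difference between CBD+LPS and LPS included 0. It was −0.23 (95% interval −0.88 to 0.43) for miR-155-3p, −0.22 (−0.68 to 0.25) for miR-155-5p and −0.31 (−0.84 to 0.23) for mir-155. For miR-21a-5p it was −0.32 (−0.72 to 0.09), for miR-21a-3p −0.24 (−0.69 to 0.21) and for miR-146a-3p −0.69 (−1.65 to 0.28). None was called, and the intervals leave room for a fall of more than 1.5-fold in each. Over the group sums the rate of miR-146a-3p in CBD+LPS was 0.61 times that in LPS. Its exact 95% interval, for counting error alone, was 0.43 to 0.87. Of the 14 features called higher against control, 11 had a lower log2 fold change under CBD+LPS than under LPS. Over all 1363 features, 611 were higher under CBD+LPS than under LPS, and the median difference was −0.05. Some of the 14 come from the same precursor and are not independent. Against LPS, 6 of the 19 called features reached an unadjusted limma p of 0.05 or less, beside 3.23% of all features. The 19 were chosen on the same CBD+LPS samples, so their share is not independent of that choice. Among the 6 were 2 called higher against control, miR-20a-3p and mir-34a. miR-20a-3p had 403, 440 and 402 CPM in LPS against 288, 288 and 356 CPM in CBD+LPS, a difference of −0.42 with a limma p of 0.0480. mir-34a had 1, 1 and 2 reads in LPS against 5, 5 and 3 reads in CBD+LPS.

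Whether the response to LPS depended on CBD was tested by the interaction, the difference between CBD+LPS and CBD less that between LPS and control. By limma 0 features had an adjusted p of at most 0.1 and 65 (4.77%) reached an unadjusted p of 0.05 or less, and edgeR's quasi-likelihood test and DESeq2 also gave 0 at the adjusted threshold, with 63 and 34 at the unadjusted one. The interaction of miR-155-5p was −0.70 (95% interval −1.35 to −0.04, limma p of 0.0388), that of mir-155 −0.83 (−1.59 to −0.07, limma p of 0.0347) and that of miR-20a-3p −0.71 (−1.30 to −0.12, limma p of 0.0219), with an adjusted p of 0.909 for each. The response of these 3 features to LPS was thus smaller with CBD than without at the unadjusted level only. In miR-155-5p the CBD samples, at 1024, 1292 and 1407 CPM, reached slightly above control, at 1248, 598 and 919 CPM, with overlap. That difference enters the interaction together with the lower level in CBD+LPS. In samples 28 to 39 alone, with 2 samples a group, the interaction reached an adjusted p of at most 0.1 in 134 features. There that of miR-155-5p was −1.03 (limma adjusted p = 0.00762). In every other setting run, each sample left out included, 0 features reached this threshold.

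CBD+LPS and THC+LPS, the cannabinoids at the same dose and time with the same LPS, differed in 2 of the 1363 features, or 0.147%, both higher with CBD. The pair CBD+LPS and THC+LPS was the only pair of combined treatments compared. By limma no feature had an adjusted p of at most 0.1 and 36 (2.64%) reached an unadjusted p of 0.05 or less, and edgeR's quasi-likelihood test and DESeq2 gave 0 at the adjusted threshold, with 32 and 18 at the unadjusted one. Both calls rest on a few reads. miR-7a-2-3p had 6, 3 and 1 reads in CBD+LPS and none in THC+LPS (limma p of 0.00179), and mir-1188 had 3, 3 and 2 reads against 0, 0 and 1 (limma p of 0.00237). Neither overlapped between the groups, beside 2.71% of all features with CBD+LPS above THC+LPS. With a sample left out, miR-7a-2-3p stayed called only without CBD+LPS sample 38 and mir-1188 only without CBD+LPS sample 38 or THC+LPS sample 39. In the other fits the limma p was 0.00552 to 0.0134 for miR-7a-2-3p and 0.00774 to 0.0128 for mir-1188. The count of calls was 0 without CBD+LPS sample 26, 1 without CBD+LPS sample 32 or THC+LPS sample 27 or 33, where it was another feature (a lower one without THC+LPS sample 27), and 3 without CBD+LPS sample 38 or THC+LPS sample 39. In samples 28 to 39 alone neither was called (limma p of 0.0333 for miR-7a-2-3p and 0.0469 for mir-1188), and the 2 calls there were both lower with CBD.

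The miRNAs called against control were not called between the cannabinoids. The difference of CBD+LPS from THC+LPS was 0.17 (95% interval −0.49 to 0.82) for miR-155-3p and −0.11 (−0.58 to 0.35) for miR-155-5p. It was −0.06 (−0.52 to 0.39) for miR-21a-3p and −0.08 (−1.05 to 0.89) for miR-146a-3p. miR-146a-5p, which was not called against control, differed by −0.09 (−0.68 to 0.49). For mir-696 the difference was −0.66 (−1.22 to −0.11, limma p of 0.0213, adjusted p = 1), with 49.8, 56.7 and 56.2 CPM in THC+LPS above every CBD+LPS sample. mir-5099 differed by −0.57 (−0.97 to −0.18, limma p of 0.00720, adjusted p = 1), with 28302, 23783 and 23800 CPM in THC+LPS, likewise above every CBD+LPS sample. miR-92a-1-5p differed by −0.47 (−0.91 to −0.02, limma p of 0.0401, adjusted p = 1), with 2214, 1587 and 1599 CPM in THC+LPS and no overlap. These 3 of the 19 called features had an unadjusted limma p up to 0.05, beside 2.64% of all features, and none met the criterion. Here too the 19 were chosen on the same CBD+LPS samples. These intervals do not show that the cannabinoids acted alike.

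Calls in the other families are set beside the 1.39% of all features called, a share at which most lists of this size would hold none. The miR-34 and miR-449 family had 12 tested features of 17, with 1 called, mir-34a, and a median log2 fold change of 0.53. miR-449a-5p, which shares the seed of miR-34a-5p, had no read in control and 6, 0 and 4 reads in CBD+LPS (not called, limma p of 0.0187), and miR-449c-5p had 0, 0 and 2 against 5, 4 and 2 reads (not called, limma p of 0.0460). The 11 features of the miR-29 family, known for targeting collagens, held no call and had a median of 0.21, and its hairpin mir-29c, with 3, 1 and 8 reads in control and 11, 12 and 16 reads in CBD+LPS, had a limma p of 0.00601. None of the 32 tested features of the let-7 family and none of the 11 of the miR-125 family was called, with medians of −0.09 and −0.09. The 8 reference features of the study, among them miR-191-5p at 54235, 56074 and 68747 CPM in control and 51201, 77057 and 72878 CPM in CBD+LPS, held no call and had a median of 0.18.

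**Figure D5:**
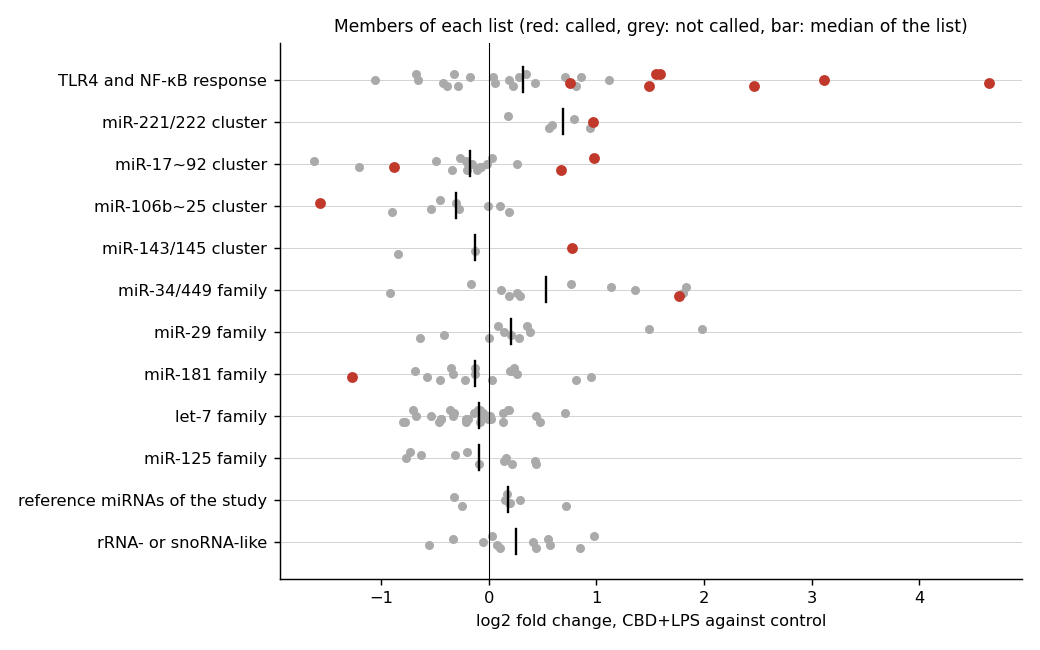
Log2 fold change of CBD+LPS against control for every tested member of each list, with called members in red, others in grey and the median of the list as a bar. Of the 26 tested members of the Toll-like receptor 4 and NF-κB list 7 are red, all to the right of 0, and the let-7 and miR-125 families hold no red point. Over all tested features 1.39% were called.

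The label of the cells was set against miRNA markers. The myeloid markers, among them the features of miR-21a and miR-142, summed to 31296 to 32130 CPM in control and 43777 to 48267 CPM in CBD+LPS, and 3 of the 9 were called, all features of miR-21a. The difference in the sum is almost wholly that of miR-21a-5p, since miR-142-5p had 9472, 7520 and 7254 CPM in control and 8757, 8175 and 7806 CPM in CBD+LPS. The median log2 fold change of the 9 was 0.04, and 4 were below 0 without being called, from −0.006 for miR-223-3p to −0.99 for mir-223. Erythroid markers summed to at most 3.50 CPM and liver markers to at most 1.2 CPM in the 6 samples, and 1 of 3 liver markers had no read in any of them. Muscle markers summed to 6.38 to 41.0 CPM and neuronal ones to 651 to 846 CPM. Of their tested members 0 of 7 and 0 of 14 were called, beside 1.39% of all features. Epithelial markers were not low, at 6842 to 8315 CPM in control and 5686 to 8174 CPM in CBD+LPS, with miR-141-3p as the largest and no call among 14. Endothelial markers summed to 395 to 692 CPM in control and 381 to 688 CPM in CBD+LPS. The part of any other cell type in the results was not tested.

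Depth and composition differed between samples. The recovered reads summed to 442718 to 760136 in control and 773522 to 940858 in CBD+LPS, and every control sample was shallower than every CBD+LPS sample. Hairpins that contain ribosomal RNA sequence (mir-6236, mir-6240, mir-6243) together took 0.204%, 3.81% and 2.41% of the reads in control samples 22, 28 and 34 and 2.78%, 1.74% and 1.197% in CBD+LPS samples 26, 32 and 38. With their summed level as a covariate 16 of the 19 calls were kept, and mir-5099 (−0.55), mir-34a and miR-705 were not. The 12 features with ribosomal or small nucleolar RNA sequence held no call, beside 1.39% of all features called, and had a median of 0.26. Pairs of samples within a group differed by more than sampling noise, the chi-square per degree of freedom being 6.02 for CBD+LPS samples 32 and 38, 83.2 and 94.8 for the pairs with CBD+LPS sample 26, and 51.6 to 94.5 in control. In the samples numbered 28 to 39 alone, which leave 2 samples a group, 53 features were called, 29 higher and 24 lower, with 12 of the 19 among them. Those no longer called there were miR-92a-1-5p (−0.50), miR-181b-1-3p (−0.93), miR-146a-3p (1.70), mir-5099 (−0.49), miR-1247-3p, miR-705 and mir-34a. Their limma p-values were 0.00125, 0.0157, 0.0107, 0.0122, 0.0232, 0.0485 and 0.0943 in this order, and miR-92a-1-5p missed only the fold threshold.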

How the data were processed

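Small RNA libraries of 18 BV-2 samples were made with an Illumina small RNA kit and sequenced on a HiSeq instrument. By the methods of the study, the authors aligned reads with BWA to the mouse sequences of miRBase, allowing up to 10 mappings per read. The miRBase release behind the alignment, and the way multi-mapped reads were counted, are not given in the sources used here. Reads shared by near-identical miRNAs can therefore not be assigned with certainty.

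The authors deposited, per sample, a signal that equals CPM on an effective library size, the read total after edgeR's TMM adjustment. Whole reads were recovered from it for 100% of values within 0.001 reads, and TMM factors recomputed from them matched the deposited scale within a relative deviation of 4.86e-10. Recovered depth was 442718 to 1057147 reads, at which 3 reads are 2.98 to 6.38 CPM. Floors and intervals on reads cover counting error only, since PCR copies are not independent molecules.

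Testing used log2(CPM + 1) in limma 3.58.1 (R 4.3.3), with the prior variance following the mean. The log scale with this pseudocount understates changes of low features. All 6 groups entered a single model, and tests were 2-sided. Alternatives were other scalings, filters and pseudocounts, no trend, hairpins or mature miRNAs alone, the 2 compared groups alone, samples 28 to 39 alone, covariates for samples 22 to 27 and for composition, edgeR 4.0.16, DESeq2 1.42.0, the adjusted p as threshold, and each sample left out. The scripts were checked on simulated counts.

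Named are the features called against control, LPS or THC+LPS, their hairpins and other arms, and for each list the called members and up to 4 with the most reads. Features that share a seed with these, and mir-29c, mir-222 and the miR-449 features, were added after their values were seen. The comparison, lists and alternatives were chosen with earlier results of these data known. Sequences and positions are from RefSeq and GENCODE M21 on GRCm38. The fold changes in the study's own tables were not used.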

Additional observations from a re-analysis of the deposited data

How the results depend on the processing

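Against control, the 19 calls of CBD+LPS became 4 with hairpins alone, 9 with the 2 compared groups alone, 53 in samples 28 to 39 alone and 6 at an adjusted p of at most 0.1. Under the other settings there were 13 to 24, and 13 to 19 with a sample left out. Against LPS the 3 calls became 7 with a filter of at least 1 read, 5 without the trend, 1 with hairpins alone, 5 by DESeq2, 0 at the adjusted p, and 1 to 6 with a sample left out. Against THC+LPS the 2 calls became 0 with filterByExpr, by DESeq2 or at the adjusted p, 1 with hairpins alone, mature miRNAs alone, the 2 groups alone or edgeR's quasi-likelihood test, 4 with the composition covariate, and 0 to 3 with a sample left out. In samples 28 to 39 alone there were again 2, but both lower, and with the 2 groups alone the 1 call was another feature. The interaction rose from 0 to 134 features in samples 28 to 39 alone and was 0 in every other setting run, each sample left out included. Fewer features or samples enter the fits of hairpins, of mature miRNAs, of 2 groups and of samples 28 to 39. The cause of the changes in these and in the other settings was not tested. Over 50 named features and all settings, 886 of 990 values against control kept their side of the threshold, 91 lost a call and 13 gained one. Changes of sign were looked for only in values called in the main fit or under the setting, and there were none. The fits that leave 1 group with 2 samples share the spread of the other groups. No paired analysis was run. The sample numbers from 22 to 39 repeat the 6 groups in the same order, but no label ties consecutive numbers together. With samples 22 to 27 as a covariate there were 24 calls against control, with 18 of the 19 kept, and 15 features passed the adjusted threshold. With 442718 to 760136 reads in control, a count of 0 allows up to 3 reads, so no size is given for changes of features without control reads.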
